A study of Homo sapiens with 4 samples.

Results

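Chromatin remodelers are enzymes that burn ATP to slide, evict or exchange nucleosomes, and each works inside a complex whose other subunits decide where it acts. Their motors all belong to the SNF2 helicase-like family. BAF (SWI/SNF) opens promoters and enhancers, the CHD family includes the motors of the NuRD deacetylase complex, ISWI spaces nucleosomes evenly, and INO80 slides nucleosomes and handles the histone variant H2A.Z. BAF is also known to work with type II topoisomerases, the enzymes removed in this study. Genes of these complexes were selected by symbol, as all names that begin with SMARCA to SMARCE, ARID1 to ARID5, CHD1 to CHD9, INO80, BAZ1, BAZ2, DPF1 to DPF3, PHF10, ACTL6, BRD7, BRD9, SS18, RUVBL or MTA1 to MTA3, without antisense (AS), pseudogene (P) and divergent (DT) transcripts. This gave 59 genes of 60656 listed features, with 22 in BAF, 13 in CHD (MTA genes included), 6 in ISWI, 7 in INO80 and 11 that share a name but sit in none of these complexes. A count filter left 53 of the 59 for testing.

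The measurements are TTchem-seq, which sequences RNA made during a short labelling pulse, on HCT116, a human colorectal carcinoma line, with 2 DKO and 2 WT libraries. In the DKO libraries both TOP2A alleles carry a mini auxin-inducible degron, TOP2B was knocked out, and 500 µM auxin was given for 8 h to destroy TOP2A. The WT libraries are labelled wildtype in genotype, while the treatment text names the degron line with intact TOP2B as the other cells used. No auxin is recorded for WT, so enzyme loss, auxin and any clonal difference cannot be told apart. Both groups were arrested in G1 by 28 h of 2 µM palbociclib, and nascent RNA was marked by 30 min of 1 mM 4-thiouridine. The labels do not say whether the DKO cells are 1 clone or whether replicates were separate cultures, so p-values measure only the spread between these libraries, which may be technical.

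Libraries held 51142867 to 53777749 counted reads, of which the remodeler genes took 0.783% and 0.803% in DKO and 0.725% and 0.736% in WT. Epithelial marker genes were transcribed in both groups. EPCAM, CDH1, CDX2 and the keratin genes KRT8, KRT18 and KRT19 were well counted, while KRT20, CDX1, VIL1 and MUC2 had at most 11 reads in any library. The summed level of the 10 epithelial markers was 428 to 443 CPM (reads scaled to a common library size) in DKO and 468 to 500 in WT. CDH1 (log2 -0.37, adjusted p = 5.9e-11), KRT8 (-0.21, 0.000138) and KRT18 (-0.19, 0.000746) fell, while EPCAM, CDX2 and KRT19 did not pass the test described below. The 7 neuronal markers summed to 526 to 599 CPM in DKO and 137 to 142 in WT, almost all of it SYT1. The 9 mesenchymal markers summed to 104 to 113 and 56.5 to 57.4, most of it ZEB1 (91.4 and 99.9 CPM in DKO, 50.1 and 50.9 in WT). Of 5 tested mesenchymal markers 4 rose, namely TWIST1 (log2 3.09, adjusted p = 9.87e-46), ZEB1 (0.92, 4.48e-42), SNAI2 (1.37, 0.00294) and ACTA2 (0.48, 0.00751). COL1A1 did not pass (-0.14, 0.404), and VIM, COL1A2, ZEB2 and PDGFRB had at most 10 reads in any library and were not tested. The 6 immune markers summed to 0.526 to 0.665 CPM in each library, with at most 26 reads for any of them, and the 2 that could be tested went opposite ways (CSF1R fell, log2 -1.72, adjusted p = 0.000301, and HLA-DRA rose, 2.49, 3.48e-05). Of 360 tested protein-coding genes of chromosome 20, 88.6% passed the test described below, 2.5% as higher and 86.1% as lower in DKO (median log2 fold change -0.62), which bears on SS18L1 and CHD6, the remodeler genes that lie there. The part of these shifts in the values below was not tested.

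Transcription of the remodeler genes shifted in both directions and by small amounts. At an adjusted p under 0.05 (edgeR), 33 of the 53 tested genes passed, 19 as higher in DKO (35.8%) and 14 as lower (26.4%). Of all 19103 tested genes 40.1% passed, 19% as higher and 21.1% as lower, and of 13174 tested protein-coding genes 45.5%, with 20.3% and 25.2%. DKO and WT libraries stood apart for 43 of the 53, with DKO above in 25 and below in 18, against 67.9% of all tested genes, 33% and 34.9%. The median log2 fold change was 0.04, against -0.01 over all tested genes. Most of these genes were well counted. Where the log2 CPM averaged 5 or more, 22 of 37 remodeler genes passed, against 48.3% of protein-coding genes (24.9% higher and 23.4% lower). ARID5B came nearest to 2-fold, and 20 of the 33 differences that passed were under 1.25-fold. In these pooled cells, a change in the share of cells transcribing a gene and a change in output per cell cannot be told apart.

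**Figure D1:**
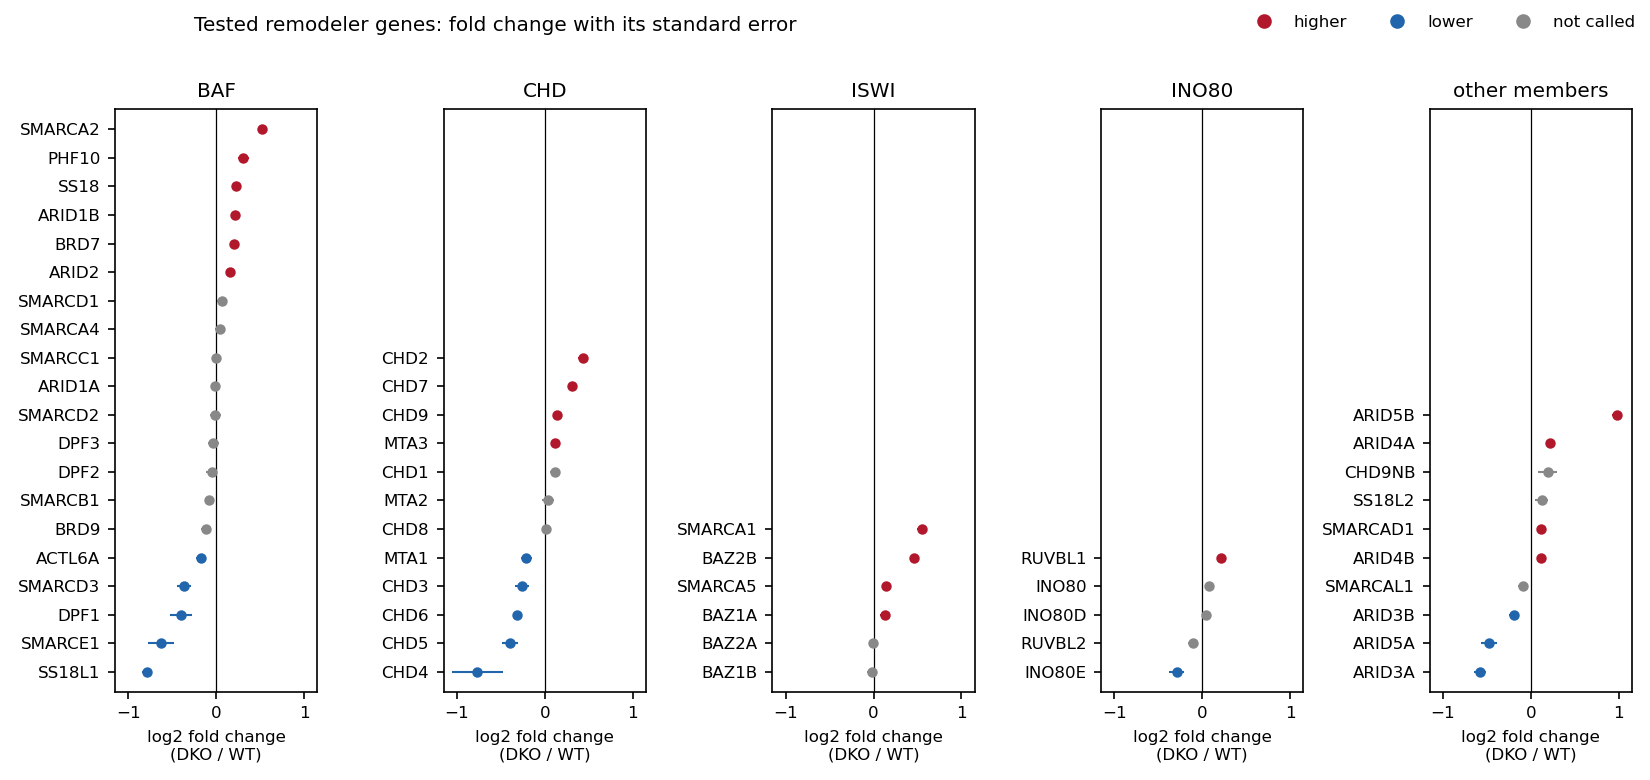
Log2 fold change (DKO over WT) with its standard error for the 53 tested remodeler genes, 1 panel per complex, with genes ordered by value and coloured by the result of the test. In ISWI 4 of 6 genes lie above 0 and BAZ1B (-0.02) and BAZ2A (-0.0034) just below it, whereas BAF and CHD genes spread to both sides, from -0.79 (SS18L1) to 0.52 (SMARCA2) in BAF.

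The calls were of unequal strength. Of the 33, SMARCA2, SMARCA1, BAZ2B, CHD2, ARID3A and ARID5B passed in all 13 alternative analyses, and SS18L1 and CHD6 in the 12 that hold chromosome 20. Leaving out WT replicate 1 left 6 higher and 3 lower, and leaving out WT replicate 2 left 9 and 7. With no filter on low counts there were 8 and 7, and ACTL6A, ARID1B, ARID2, DPF1, PHF10, CHD3, CHD4, CHD9, MTA1, MTA3, INO80E, RUVBL1, BAZ1A, SMARCA5, ARID3B, ARID4A, ARID4B and SMARCAD1 missed the threshold (adjusted p 0.052 to 0.361). The Wald test of DESeq2 gave 18 and 10, without ACTL6A (0.0507), DPF1 (0.0901), CHD4 (0.246), MTA1 (0.0541), MTA3 (0.0918) and BAZ1A (0.0532). With chromosome 20 genes removed, MTA3 (0.0535) and ARID4B (0.0581) missed it and BRD9 (0.0472) passed. None of the 33 changed direction in any of the 13.

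In BAF, 6 of 20 tested genes rose, 5 fell and 9 did not pass, with a median log2 fold change of -0.01. That is 30% higher and 25% lower, against 20.3% and 25.2% of tested protein-coding genes. The complex is built around 1 of 2 interchangeable motors. SMARCA2 (BRM), the motor more abundant in differentiated cells, stood at 119 and 124 CPM in DKO and 84.5 and 84.3 CPM in WT. Both DKO libraries were above both WT libraries, a 1.44-fold rise (log2 0.52 ± 0.05 SE, adjusted p = 5.33e-21). SMARCA4 (BRG1), the motor typical of proliferating cells, was at 166 and 174 CPM in DKO and 166 and 165 in WT (log2 0.04, adjusted p = 0.546). Both DKO libraries were above both WT libraries for SMARCA4 too, but DKO replicate 1 only just (166.4 against 166.0 and 165.1 CPM). The count ratio of SMARCA2 to SMARCA4 was 0.715 and 0.713 in DKO against 0.509 and 0.511 in WT. That ratio does not depend on library scaling, and with 4 libraries the exact two-sided permutation p was 0.333, the smallest 6 splits allow.

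Of 11 tested subunits that define the form of BAF, 5 rose, 2 fell and 4 did not pass (median log2 fold change -0.01). That is 45.5% higher and 18.2% lower, against 20.3% and 25.2% of tested protein-coding genes. ARID1B, the alternative to ARID1A in canonical BAF, had 748 and 804 CPM in DKO against 664 and 671 in WT (log2 0.22 ± 0.05, adjusted p = 0.00024), whereas ARID1A had 222 and 230 against 232 and 224 and overlapped between groups (-0.01, 0.887). ARID2 and PHF10, which mark the PBAF form, rose by 0.16 ± 0.05 and 0.31 ± 0.07. BRD7, the PBAF bromodomain protein, rose by 0.20 ± 0.05, from 119 and 124 to 139 and 141 CPM, while BRD9 of the non-canonical form stood at 58.5 and 59.4 CPM in DKO and 66.5 and 61.3 in WT (-0.12, adjusted p = 0.0589). PBRM1, the other PBAF subunit and outside the name rule, did not pass, at 174 and 171 against 177 and 178 CPM (-0.04, 0.543).

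SS18 and SS18L1 (CREST) encode interchangeable subunits, the first used in dividing cells and the second in neurons, and they moved apart. SS18 was at 260 and 254 CPM in DKO and 218 and 223 in WT (log2 0.22 ± 0.05, adjusted p = 3.57e-05). SS18L1 was at 41.5 and 41.6 against 72.5 and 71.2, a 1.73-fold fall (-0.79 ± 0.05, 7.13e-33). Neither gene's groups overlapped, and SS18 counts exceeded SS18L1 counts 6.27 and 6.11 times in DKO but 3.01 and 3.13 times in WT (exact permutation p = 0.333). SS18L1 lies on chromosome 20, where 86.1% of tested protein-coding genes were lower, with a median of -0.62.

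None of the other 3 neuron-type subunits passed as higher. The neuronal markers SYT1 (log2 2.05), SNAP25 (2.97) and NCAM1 (4.68) rose in the same libraries, while RBFOX3 (0.19, adjusted p = 0.683), MAP2 (0.11, 0.458) and TUBB3 (-0.13, 0.762) did not pass and STMN2 had at most 2 reads. DPF1 was at 3.64 and 3.20 CPM in DKO and 4.45 and 4.58 in WT (-0.40 ± 0.12, adjusted p = 0.00486), DPF3 overlapped between groups (-0.03, 0.72), and ACTL6B had at most 1 read per library and was not tested. Of their counterparts in dividing cells, ACTL6A fell slightly (37.5 and 37.8 against 41.8 and 43.1 CPM, -0.17 ± 0.06, 0.00782) and DPF2 did not pass (-0.05, 0.517). A further such counterpart, PHF10, given above for PBAF, rose (0.31 ± 0.07, 2.72e-05). SMARCD3, a variant of the SMARCD scaffold used in muscle and heart, was at 11.4 and 11.1 against 14.5 and 14.5 CPM (-0.37 ± 0.08, 7.9e-05), while SMARCD1 (0.06) and SMARCD2 (-0.01) overlapped.

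Of 7 tested core and shared subunits, 0 rose and 3 fell (0% and 42.9%, against 20.3% and 25.2% of tested protein-coding genes). The 3 were ACTL6A and SMARCD3, given above, and SMARCE1. SMARCC1, a scaffold present in every form, had 460 and 488 CPM in DKO and 462 and 483 in WT (log2 0.0025, adjusted p = 0.977), and SMARCB1 had 89.8 and 87.9 against 94 and 94.1 (-0.08, 0.168). SMARCC2 is listed at 0 in every library and SMARCE1 at 102 to 167 reads, with 1.95 and 1.91 CPM in DKO and 3.22 and 2.74 in WT (-0.62 ± 0.15, adjusted p = 0.000223). Both encode common BAF subunits. No other RefSeq gene overlaps the span of either (0% covered), and the reason for the low counts was not tested. Without WT replicate 1, SMARCE1 (0.0948), SMARCD3 (0.059), SS18 (0.0859), BRD7 (0.108), ARID1B (0.142), ARID2 (0.241), ACTL6A (0.096) and DPF1 (0.12) missed the threshold. Without WT replicate 2, PHF10 (0.0749), ARID1B (0.101), ARID2 (0.105), ACTL6A (0.133) and DPF1 (0.119) did, and without DKO replicate 2, ARID2 (0.0591) and DPF1 (0.0873).

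The promoters of SMARCA2 with SMARCA4 and of SS18 with SS18L1 are shown because 1 paralog of each pair changed and the other did not, or changed the other way. Each is the 250 bases before the RefSeq start of transcription (GRCh38.p14), read 5′ to 3′ on the gene's strand. Capitals mark 3 motifs on either strand, which are the GC box, spelled GGGCGG, the CCAAT box, spelled by its name, and the core of the sites of ETS factors, spelled CCGGAAG. A match is a run of letters, not a shown binding site. The windows are SMARCA2 on chr9:2015097-2015346 (plus strand), SMARCA4 on chr19:10960780-10961029 (plus), SS18 on chr18:26091220-26091469 (minus) and SS18L1 on chr20:62143519-62143768 (plus).
SMARCA2: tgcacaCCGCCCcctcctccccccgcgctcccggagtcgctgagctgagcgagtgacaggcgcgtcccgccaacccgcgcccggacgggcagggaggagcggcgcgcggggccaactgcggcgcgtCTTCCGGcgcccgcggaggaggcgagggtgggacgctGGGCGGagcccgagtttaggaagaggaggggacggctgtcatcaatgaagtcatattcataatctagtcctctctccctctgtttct
SMARCA4: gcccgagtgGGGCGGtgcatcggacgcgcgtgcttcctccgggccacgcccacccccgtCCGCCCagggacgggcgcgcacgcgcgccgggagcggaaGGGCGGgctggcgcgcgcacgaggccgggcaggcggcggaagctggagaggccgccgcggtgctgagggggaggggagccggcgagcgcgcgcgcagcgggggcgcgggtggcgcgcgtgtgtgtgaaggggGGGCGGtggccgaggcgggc
SS18: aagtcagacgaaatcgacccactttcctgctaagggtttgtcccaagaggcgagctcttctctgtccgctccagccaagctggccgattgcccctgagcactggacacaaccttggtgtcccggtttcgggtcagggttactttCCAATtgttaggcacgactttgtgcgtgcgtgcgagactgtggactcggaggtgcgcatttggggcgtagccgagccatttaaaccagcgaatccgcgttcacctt
SS18L1: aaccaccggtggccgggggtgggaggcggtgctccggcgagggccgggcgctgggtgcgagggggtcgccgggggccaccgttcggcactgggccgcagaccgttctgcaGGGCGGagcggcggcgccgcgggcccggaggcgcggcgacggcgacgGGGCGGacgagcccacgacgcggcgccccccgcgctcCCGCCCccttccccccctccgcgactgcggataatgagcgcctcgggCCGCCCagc
SMARCA4 and SS18L1 have the more GC-rich windows, at 82.4% and 81.6% with 44 and 42 CpG dinucleotides and 4 GC boxes each. SMARCA2 has 68.8% GC, 29 CpG, 2 GC boxes and 1 ETS core. SS18 has 56.4% GC, 18 CpG and a single CCAAT box.

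Among CHD genes, 4 of 12 tested rose, 5 fell and 3 did not pass (median log2 fold change 0.02). The 75% that passed compares with 45.5% of tested protein-coding genes and 40.1% of all tested genes. CHD2, a motor that travels with elongating polymerase and deposits H3.3, led the rises with 537 and 576 CPM in DKO and 412 and 414 in WT. The DKO libraries stood clear of WT, a 1.35-fold difference (log2 0.43 ± 0.05, adjusted p = 7.69e-14). Its close relative CHD1 was at 371 and 368 against 342 and 343 CPM (0.11 ± 0.05, 0.0562). CHD1 passed the threshold in 6 of the 13 alternatives, such as limma voom (0.0294).

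The branch CHD6 to CHD9 comprises large motors linked to development and enhancer function. CHD7, the gene of CHARGE syndrome, had 504 and 527 CPM in DKO and 420 and 413 in WT (0.31 ± 0.05, adjusted p = 4.3e-08). CHD9 rose by 0.14 ± 0.05 (409 and 412 against 356 and 387 CPM, 0.0129) and CHD8 overlapped (151 and 159 against 152 and 154 CPM, 0.01, 0.859). CHD6 went the other way, with 300 and 308 CPM in DKO and 376 and 379 in WT (-0.31 ± 0.05, 1.05e-08). This fall is smaller than the chromosome 20 median of -0.62, and the ratio of CHD6 to CHD7 counts was 0.595 and 0.584 in DKO against 0.896 and 0.918 in WT (exact permutation p = 0.333).

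In NuRD, which couples nucleosome sliding to histone deacetylation, 4 of 6 tested genes fell and 1 rose, against 25.2% and 20.3% of tested protein-coding genes. The motor gene CHD3 had 12.8 and 13.7 CPM in DKO and 16.3 and 15.4 in WT (-0.26 ± 0.08, adjusted p = 0.00436). CHD5, a motor best known in neurons, had 9.08 and 8.71 against 12 and 11.5 CPM (-0.40 ± 0.09, 6.81e-05). CHD4, the main NuRD motor of most cells, is listed with very few reads, 20 and 23 in the DKO libraries against 42 and 29 in WT (-0.77 ± 0.29, 0.0258), and other RefSeq genes cover 43.3% of its span, so its level and its fall are uncertain. The MTA scaffolds split, as MTA1 fell (22.1 and 21.8 against 24.5 and 26.2 CPM, -0.21 ± 0.07, 0.00682), MTA2 overlapped (0.04, 0.701) and MTA3 rose (193 and 211 against 180 and 192 CPM, 0.12 ± 0.05, 0.039).

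Beyond the name rule, 7 of 9 tested NuRD subunits did not pass, the deacetylase genes HDAC1 (-0.06) and HDAC2 (-0.04) among them. The share that passed was 22.2%, against 45.5% of tested protein-coding genes. The methyl-CpG binder MBD2 rose by 0.12 (adjusted p = 0.0396) and the histone chaperone RBBP4 fell by 0.13 on the log2 scale (0.02), and neither passed by DESeq2 (0.0537 and 0.0501) or with no filter (0.186 and 0.0712). MBD2 also missed the threshold without chromosome 20 genes (0.0552) and RBBP4 with upper quartile factors (-0.09, 0.129). CHD1L, a PARP-activated motor, had at most 3 reads per library and was not tested, and other genes cover 36.6% of its span. With WT replicate 1 left out, CHD7 (0.0509), CHD5 (0.07), MTA1 (0.0761), CHD3 (0.163), CHD4 (-0.49, 0.32), CHD9 (0.08, 0.362), MTA3 (0.07, 0.55), MBD2 (0.07, 0.376) and RBBP4 (0.14) missed the threshold. Without WT replicate 2, CHD3 (0.0687), CHD4 (0.0647), CHD9 (0.0714), MTA1 (0.152), MTA3 (0.185), MBD2 (0.11) and RBBP4 (0.198) did. So did CHD3 (0.0681), CHD4 (0.148), MBD2 (0.0649) and RBBP4 (0.0675) without DKO replicate 1, and CHD4 (0.064), MTA3 (0.05, 0.481) and MBD2 (0.0661) without DKO replicate 2.

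Of the 6 ISWI genes 4 rose (66.7%, against 20.3% of protein-coding genes) and BAZ1B and BAZ2A did not pass, with a median log2 fold change of 0.13. SMARCA1 (SNF2L), the motor of the NURF form, had 66 and 73.6 CPM in DKO and 47.3 and 47.9 in WT, a 1.46-fold rise (log2 0.55 ± 0.05, adjusted p = 2.5e-19). SMARCA5 (SNF2H), the motor of the ACF, CHRAC and NoRC forms, had 134 and 130 against 118 and 121 CPM (0.14 ± 0.05, 0.0113). Groups did not overlap for either motor, and SMARCA1 gained on SMARCA5, with a count ratio of 0.493 and 0.567 in DKO and 0.400 and 0.396 in WT (exact permutation p = 0.333).

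The BAZ genes encode the large partners that steer these motors. BAZ2B had 178 and 197 CPM in DKO and 135 and 138 in WT (0.46 ± 0.05, adjusted p = 5.32e-17), while BAZ2A (TIP5), which silences ribosomal DNA, overlapped with 68.2 and 70.9 against 73.7 and 65.7 (-0.0034, 0.969). BAZ1A (ACF1) rose by 0.13 ± 0.05 (212 and 221 against 190 and 207 CPM, 0.0254), and BAZ1B (WSTF) overlapped (248 and 251 against 246 and 260, -0.02, 0.739). Each BAZ pair thus held 1 gene that passed and 1 that did not. Among 5 further ISWI partners, CECR2 rose from 69.7 and 72.0 to 90.0 and 92.5 CPM (0.36 ± 0.05, 4.13e-11) and POLE3 fell (-0.20, 0.0121), whereas BPTF (0.01), RSF1 (0.06) and CHRAC1 (0.0009) did not pass. That is 40% called, against 45.5% of tested protein-coding genes. SMARCA5 missed the threshold without WT replicate 1 (0.211), WT replicate 2 (0.121) or DKO replicate 1 (0.062), BAZ1A without WT replicate 1 (0.07, 0.477), WT replicate 2 (0.0923) or DKO replicate 2 (0.144), and POLE3 with DESeq2 (0.087), with no filter (0.141) and without WT replicate 1 (0.144), WT replicate 2 (0.221) or DKO replicate 2 (0.205).

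The promoters of the ISWI motors are shown because both genes rose, by unequal amounts, with SMARCA1 on chrX:129523491-129523740 (minus strand) and SMARCA5 on chr4:143513452-143513701 (plus strand), with the same capitals.
SMARCA1: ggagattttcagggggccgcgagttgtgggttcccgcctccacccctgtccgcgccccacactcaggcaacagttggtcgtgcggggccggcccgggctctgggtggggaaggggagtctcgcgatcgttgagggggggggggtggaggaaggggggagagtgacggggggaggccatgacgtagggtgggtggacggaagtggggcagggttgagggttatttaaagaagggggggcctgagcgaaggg
SMARCA5: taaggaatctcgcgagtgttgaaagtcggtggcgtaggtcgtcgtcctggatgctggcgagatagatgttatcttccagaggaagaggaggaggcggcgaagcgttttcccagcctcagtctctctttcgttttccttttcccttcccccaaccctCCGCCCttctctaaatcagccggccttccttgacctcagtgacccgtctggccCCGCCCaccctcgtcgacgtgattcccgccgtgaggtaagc
SMARCA1 has 68% GC and 16 CpG with none of the searched motifs in this window. SMARCA5 has 58% GC, 20 CpG and 2 GC boxes. Across all 27305 promoter windows the median was 58% GC and 11 CpG, and 42.3% held a GC box, 33% a CCAAT box and 8.82% an ETS core.

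A promoter window was found for 48 of the 59 genes. The 16 such genes that rose had a median of 61.6% GC and 19 CpG, the 18 that did not pass 65.4% and 23.5, and the 9 that fell 71.2% and 25. A GC box stood in 8 of the 16, 14 of the 18 and 6 of the 9. The core letters of the aryl hydrocarbon receptor element (GCGTG), searched on both strands, stood in 3 of the 16, 7 of the 18 and 2 of the 9, and in 31.2% of the 48 windows against 31.9% of all windows. These counts describe letters in few promoters and were not tested.

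In INO80, differences that passed were few. Of its 7 genes, INO80B and INO80C had at most 1 read per library and were not tested, 1 of the other 5 rose, 1 fell and 3 did not pass (40% called, against 45.5% of tested protein-coding genes). The motor INO80 had 332 and 341 CPM in DKO and 311 and 327 in WT (0.08 ± 0.05, adjusted p = 0.194), and INO80D had 92.4 and 92.8 against 88 and 91.3 (0.05, 0.465). RUVBL1 and RUVBL2 form the paired AAA+ ring that INO80 shares with SRCAP and TIP60. RUVBL1 rose from 99.9 and 97.3 to 118 and 111 CPM (0.22 ± 0.05, 5.38e-05), while RUVBL2 was at 43.6 and 43.3 in DKO and 47.4 and 45.9 in WT (-0.10, 0.124).

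INO80E, an accessory subunit, fell (10.9 and 10.2 against 13.5 and 12.3 CPM, -0.29 ± 0.08, adjusted p = 0.00288). INO80B lies wholly inside the readthrough gene INO80B-WBP1, which had 20 to 29 reads, so its counts of 0 may not reflect its transcription. No other RefSeq gene overlaps the span of INO80C (0% covered), and the reason for its low counts was not tested. Without WT replicate 1, RUVBL1 (0.0838) and INO80E (0.173) missed the threshold, as they did without WT replicate 2 (0.0905 and 0.0558), and INO80E also without DKO replicate 2 (0.0522).

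Of 23 tested partners of INO80, SRCAP and TIP60 outside the name rule, 5 rose, 4 fell and 14 did not pass. The 39.1% that passed is near the 40.1% of all tested genes and below the 45.5% of protein-coding genes. UCHL5, the INO80-bound deubiquitinase, rose from 227 and 226 to 301 and 297 CPM (log2 0.40 ± 0.05, adjusted p = 1.76e-13), and EPC2 of TIP60 from 291 and 307 to 365 and 383 (0.33 ± 0.05, 3.53e-09). MRGBP (-0.72 ± 0.08) and ACTR5 (-0.66 ± 0.05) fell, and both lie on chromosome 20, near its median of -0.62. The motors SRCAP (0.06, 0.568) and EP400 (0.06, 0.334) did not pass. EPC2 missed the threshold without WT replicate 1 (0.0617). Of 8 further BAF genes tested, only BCL11A passed (12.5%, against 45.5% of protein-coding genes). It was at 1.16 and 1.33 against 0.578 and 0.646 CPM (1.02 ± 0.23, 9.41e-05), and did not pass without WT replicate 1 (log2 0.95). Over all 57 tested genes outside the name rule, the SNF2-family relatives given below included, 31.6% passed. Of the 53 tested remodeler genes 62.3% did, and of tested protein-coding genes 45.5%. The median span was 42.2 kb outside the name rule and 70.9 kb for the remodeler genes. The part of span in this difference was not tested.

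Outside the 4 complexes, the name rule holds 11 genes, of which 4 of 10 tested rose and 3 fell (40% and 30%, against 20.3% and 25.2% of tested protein-coding genes, median log2 fold change 0.12). ARID5B, a partner of the demethylase PHF2, rose 1.97-fold, from 32.2 and 33.5 CPM in WT to 59.5 and 69.8 in DKO (log2 0.98 ± 0.06, adjusted p = 6.98e-40). Its paralog ARID5A, an RNA-binding regulator of inflammatory transcripts, fell from 12.5 and 11.1 to 8.82 and 8.06 CPM (-0.48 ± 0.09, 1.78e-06). The count ratio of ARID5A to ARID5B was 0.148 and 0.115 in DKO against 0.388 and 0.330 in WT (exact permutation p = 0.333). ARID3A, an AT-rich DNA-binding factor and E2F1 partner, fell 1.5-fold, from 26.6 and 25.4 to 17.2 and 17.5 CPM (-0.58 ± 0.07, 9.66e-14), and ARID3B fell by 0.19 on the log2 scale (0.00363).

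The SIN3 subunits ARID4A (0.22, adjusted p = 0.000149) and ARID4B (0.12, 0.0418) and the motor SMARCAD1, which acts in heterochromatin maintenance and break resection (0.12, 0.035), rose slightly. SMARCAL1 (-0.09), SS18L2 (0.12) and CHD9NB (0.19) did not pass, and ARID3C had 6 to 16 reads and was not tested. SS18L2 lies wholly inside the span of SEC22C, so its reads may be shared. Without WT replicate 1, ARID5A (0.0796), ARID3B (0.1), ARID4A (0.155), ARID4B (0.374) and SMARCAD1 (0.333) missed the threshold. ARID3B (0.102), ARID4B (0.219) and SMARCAD1 (0.121) did so without WT replicate 2, and ARID4B (0.07, 0.34) and SMARCAD1 (0.0774) without DKO replicate 2.

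**Figure D2:**
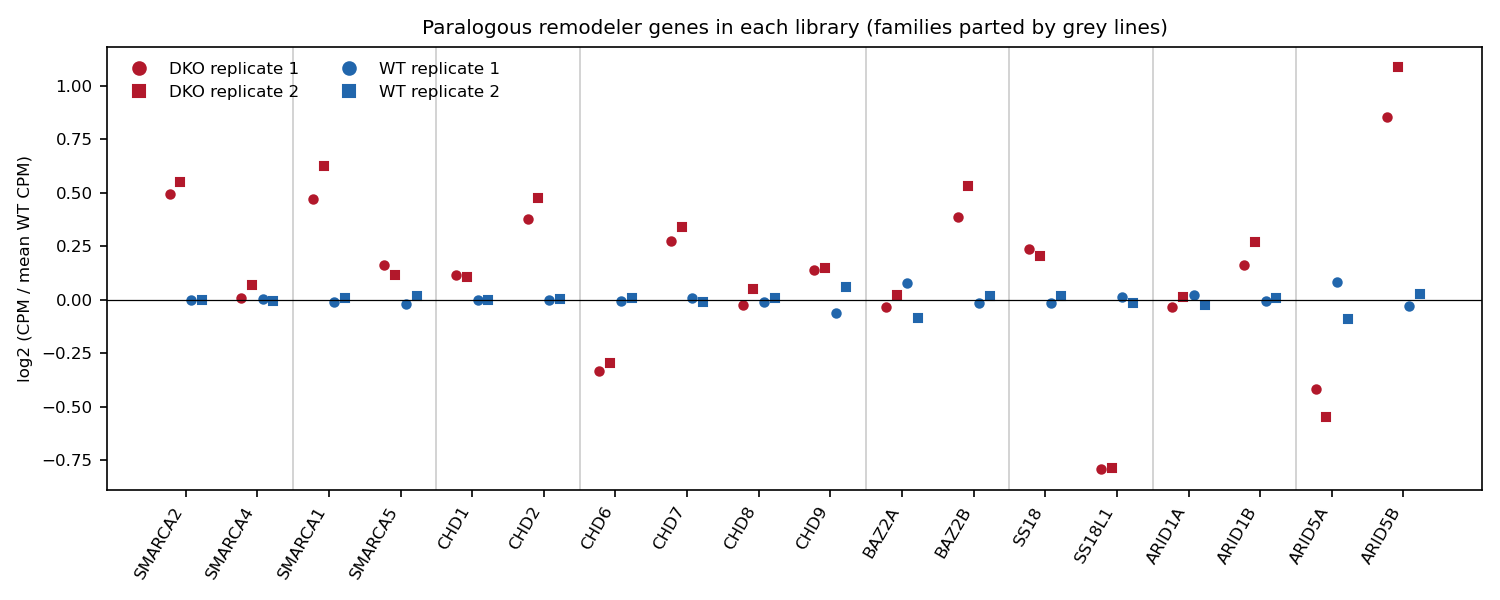
Level of 18 paralogous genes in each library, as log2 of its CPM over the mean WT CPM of that gene, with DKO in red, WT in blue, and grey lines between families. SMARCA2, SMARCA1, CHD2, BAZ2B and ARID5B lie above their WT values in both DKO libraries, CHD6, SS18L1 and ARID5A below, while SMARCA4, CHD8, BAZ2A and ARID1A lie nearer to 0.

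Paralogs within a library share its depth, so their ratios are free of scaling. Over the 29 pairs of tested paralogs, 5 held 1 gene that passed as higher and 1 as lower, namely SS18 with SS18L1, MTA3 with MTA1, CHD7 with CHD6, CHD9 with CHD6, and ARID5B with ARID5A. All but the MTA and ARID5 pairs hold a chromosome 20 gene. In both of those pairs the gene that rose has the longer span. MTA3 spans 263 kb against 50.9 kb for MTA1, and ARID5B 195 kb against 15.9 kb for ARID5A. The part of span in these differences was not tested. MTA1 to MTA3 ratios were 0.114 and 0.104 in DKO and 0.136 in both WT libraries (exact permutation p = 0.333). With 2 against 2 libraries no such ratio can reach a p under 0.333, before or after adjustment over the 29 pairs.

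Longer remodeler genes were more often higher. Of 16 tested remodeler genes that span over 100 kb, 11 rose and 1 fell, the latter being CHD6 on chromosome 20, and their median log2 fold change was 0.13. Of the 37 shorter ones, 8 rose and 13 fell (median -0.02). Protein-coding genes at large showed the same lean, with 52% of 2844 genes over 100 kb passing, 34.7% as higher and 17.4% as lower, against 43.7% of 10330 shorter genes, 16.4% and 27.3%. As a description across genes, which are not independent replicates, Spearman's rho of fold change with span was 0.46 for the remodeler genes and 0.25 for all tested protein-coding genes. The long genes that rose included ARID1B (435 kb), BAZ2B (397 kb), CHD9 (273 kb), MTA3 (263 kb), CHD7 (189 kb) and SMARCA2 (178 kb). DPF3 (285 kb) and SMARCC1 (197 kb) did not pass, and SMARCA1 (77 kb) rose although it is shorter than 100 kb.

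**Figure D3:**
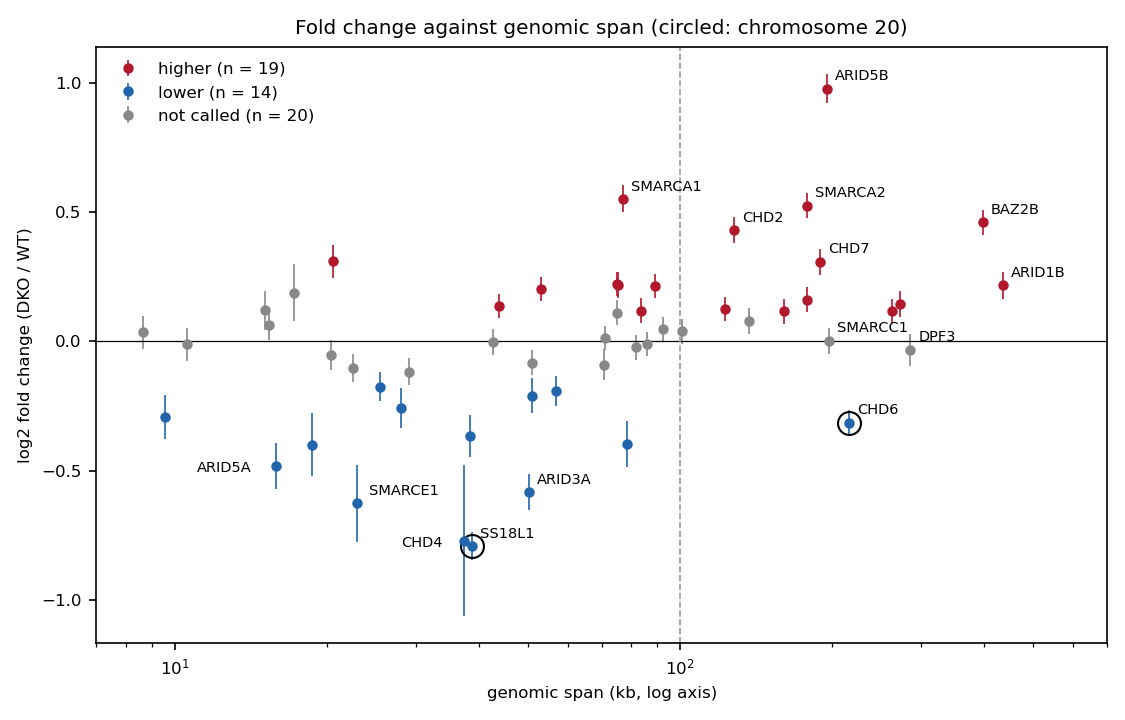
Log2 fold change (DKO over WT, with standard error) against genomic span in kb on a log axis for the 53 tested remodeler genes, coloured by the result of the test, with the dashed line at 100 kb and circles on the chromosome 20 genes. Right of the line 11 of 16 genes are higher and only CHD6 is lower, whereas the 13 other falls lie to the left.

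In CPM per kb of span, CHD1 (4.56 in WT and 4.93 in DKO) and CHD2 (3.23 and 4.35) were the most densely counted remodeler genes, and CHD2 was among those that rose. Other genes that rose spread from SMARCAD1 (2.98 and 3.24) and SS18 (2.94 and 3.43) down to ARID5B (0.168 and 0.332). Among those between were SMARCA1 at 0.619 and 0.906, SMARCA2 at 0.474 and 0.682 and BAZ2B at 0.344 and 0.474. SMARCA4 was at 1.64 and 1.68 and SMARCA5 at 2.73 and 3.01, so the less transcribed motor of each pair stayed below its paralog in both groups. The feature over which reads were counted is not given in the sources used here, and these densities take the whole span. Summed over each group, BAF genes took 2940 and 3067 CPM in DKO against 2782 and 2814 in WT, CHD genes 2536 and 2632 against 2319 and 2362, ISWI genes 906 and 943 against 810 and 840, and INO80 genes 597 and 599 against 559 and 574. The summed level was higher in both DKO libraries for each of the 4 groups, by 5.5% (INO80) to 12% (ISWI), and the genes with the most reads weigh most in such sums.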

How the data were processed

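Each deposited file lists whole-number counts of reads by Ensembl ID for a single library. The submitters' processing notes name STAR 2.7.3a, featureCounts 1.6 and hg38. The sources used here do not give the gene set version, the strand setting or the counted feature, so overlapping and antisense genes may share reads. Without a spike-in, a change in total output would not show.

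A symbol was found for 42020 of 60656 IDs, and a span in RefSeq GRCh38.p14 for 40513. All genes were fitted with edgeR 4.0.16 (quasi-likelihood, R 4.3.3) if they passed filterByExpr (minimum count 10, minimum total 15), with TMM factors and group as the only term. Adjusted p-values, printed after each log2 fold change, are Benjamini-Hochberg values over all 19103 tested genes. Standard errors derive from the F statistic of that fit, with n = 2 per group. Log2 CPM used a prior count of 2. Replicates differed by more than sampling noise (chi-square per degree of freedom 4.98 in DKO and 4.33 in WT). On counts simulated for these 19103 genes, 58% of 50 genes changed 1.25-fold were recovered, 88% at 1.5-fold, 96% at 2-fold and 100% at 3-fold, with 7 of 18903 unchanged genes called. The simulation changed a far smaller share of genes than the 40.1% that passed here. Its rates of recovery and of false calls may therefore not hold for these data.

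Alternatives used limma 3.58.1, DESeq2 1.42.0, other scalings and filters, the replicate block, no chromosome 20 genes, and each library left out. Named genes were the motors, up to 4 rises and 4 falls per complex, paralogs called in opposite directions, and up to 2 per direction of each list of further subunits; others are given by value. The members and lists were chosen with earlier results of these data known. Promoter sequences are from RefSeq. Figures were drawn with matplotlib 3.10.9.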

Additional observations from a re-analysis of the deposited data

How the results depend on the processing

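With 2 libraries per group small differences rest on few values, and where 1 library is left out its partner takes its spread from the other group. With each library left out in turn, the higher and lower counts ranged over 6 to 18 and 3 to 12 for all remodeler genes, 2 to 6 and 1 to 5 for BAF, 1 to 4 and 1 to 4 for CHD, 0 to 1 and 0 to 1 for INO80, 2 to 3 higher for ISWI. The number of all tested genes higher in DKO ranged over 1023 to 3127 and of all tested genes lower in DKO over 928 to 3443. With no filter beyond 1 read the counts were 8 and 7 for remodeler genes, 3 and 3 for BAF, 2 and 2 for CHD, 0 and 0 for INO80, 2 higher for ISWI, and 1640 and 1655 for all genes, and the cause was not tested. The Wald test of DESeq2 gave 3 lower in BAF, 3 lower in CHD and 2524 lower of all genes. DESeq2 size factors, total counts, upper quartile factors, limma voom and at least 50 reads in 2 libraries ended no call among those of the 59 remodeler genes that had a value. Upper quartile factors turned the balance of all tested genes to 4226 higher and 3328 lower, and left the remodeler genes at 20 and 14. The labels do not say whether libraries with the same replicate number were handled together. The difference between replicates 1 and 2 correlated at 0.01 between groups, which cannot settle this with 1 such difference per group. The replicate block gave 20 higher and 14 lower remodeler genes and ended no call of theirs. Genes near 0 that did not pass changed sign. SMARCC1 was -0.0014 with total counts, -0.0046 with no filter, -0.0035 without chromosome 20 genes and -0.041 to 0.046 with a library left out. BAZ2A was 0.0046 with DESeq2 size factors and with the Wald test, 0.0068 with at least 50 reads, 0.032 with upper quartile factors and -0.085 to 0.081 with a library left out. With upper quartile factors ARID1A was 0.025, DPF3 0.0031, SMARCD2 0.023 and BAZ1B 0.012. With a library left out ARID1A ranged from -0.036 to 0.015, DPF3 from -0.095 to 0.030, SMARCD2 from -0.081 to 0.058, CHD8 from -0.025 to 0.051, MTA2 from -0.048 to 0.12 and BAZ1B from -0.065 to 0.018.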

Other observations

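Of 12 tested SNF2-family relatives of the remodeler motors outside the name rule, 4 fell and 8 did not pass, which is 33.3% called against 45.5% of tested protein-coding genes. HELLS, a motor needed for DNA methylation, was at 79.1 and 87.8 CPM in DKO and 92.2 and 97.6 in WT (log2 -0.19, adjusted p = 0.000882), and RAD54B, a recombination motor, at 81.3 and 84.3 against 91.9 and 94.4 (-0.17, 0.00214). Their groups did not overlap. RAD54L (-0.17, 0.0125) and ERCC6L (-0.17, 0.0305) also fell. Neither passed with upper quartile factors (0.0568 and 0.087), by the Wald test of DESeq2 (0.112 and 0.125) or with no filter (0.272 and 0.073), and with no filter HELLS (0.166) and RAD54B (0.0592) did not pass either. The span of ERCC6L is 100% covered by PIN4, so their reads may be shared. Without WT replicate 1 HELLS (0.142), RAD54B (0.0991), RAD54L (0.48) and ERCC6L (0.161) missed the threshold, as they did without WT replicate 2 (0.247, 0.126, 0.0896 and 0.129). HELLS (0.0948), RAD54L (0.234) and ERCC6L (0.111) missed it without DKO replicate 1, and ERCC6L (0.0739) without DKO replicate 2. ATRX, the long X-linked motor, spans 281 kb and overlapped between groups with 396 and 423 against 388 and 425 CPM (0.01, 0.879), and ZRANB3 spans 334 kb and was at 211 and 226 against 227 and 242 (-0.10, 0.08).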
